A study of Saccharomyces cerevisiae with 6 samples.

Results

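The large ribosomal subunit of yeast is put together by assembly factors, proteins that act on the maturing particle and leave before it translates. The transcripts of 58 such factors were examined after sucrose withdrawal. They were taken by name from a list of genes, with no cutoff on their measured values, out of 5028 genes in the filtered count table. The list was chosen with earlier results of these data known. All 58 were among the 5011 genes that passed the filter on low counts.

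Assembly of the 60S subunit starts in the nucleolus on the RNA polymerase I transcript, where helicases, methyltransferases and scaffold proteins fold and modify the pre-rRNA. The particle then moves through the nucleoplasm, where GTPases and the AAA ATPase Mdn1 remodel it, and is exported to the cytoplasm, where the last factors are released. In yeast the genes for these factors are known to be expressed together with growth and to be lowered together in many stresses, and many carry the PAC and RRPE sequence elements upstream of their start codons.

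Poly(A) RNA was sequenced in strand-specific libraries from BY4741, a haploid laboratory strain of mating type a that carries deletions in HIS3, LEU2, MET15 and URA3 and is labelled wild type. Libraries came from 3 NoSucrose and 3 Sucrose cultures, all grown on 2% sucrose to an OD600 of 0.45. The NoSucrose cultures were then collected on a filter and kept 16 min in fresh medium. The carbon sources of that medium were 2% glycerol and 2% ethanol. The Sucrose cultures were harvested directly from 2% sucrose. The Sucrose cultures were neither filtered nor transferred, so handling and carbon source cannot be told apart, and the labels give SC as the base medium whereas the study's methods give SC without tryptophan. The study used biological triplicates, and the p-values below measure the spread between these 3 cultures per condition.

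The estimated counts of a library added up to between 25106494 and 33651822, and no member had fewer than 371 counts in any library. Values are CPM, counts relative to the library size after scaling of that size by a TMM factor. These factors lay between 0.957 and 1.07. No spike-in was used, so each change is relative to the other poly(A) transcripts of the same library, and fewer cells with a transcript cannot be told apart from less of it per cell. LEU2, MET17 (another name of MET15) and URA3 were not among the filtered genes, whereas HIS3, of which the deletion in this strain leaves a part, had 1164 to 3414 counts per library. The mating type a genes STE2, MFA1, MFA2, STE6 and BAR1 were present, with counts per library from 1039 for MFA1 to 13953 for STE2. Of the alpha cell genes, MF(ALPHA)1 and MF(ALPHA)2 were not among the filtered genes. STE3, the a-factor receptor, had 174 to 264 counts and SAG1, an agglutinin, 720 to 1125. All 8 genes listed as markers of carbon source withdrawal were called increased in NoSucrose, including the acetate transporter ADY2 (log2 fold change 9.25) and the lactate transporter JEN1 (7.18).

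After sucrose withdrawal the transcripts of the 60S assembly factors fell together. All 58 were lower in NoSucrose than in Sucrose at an adjusted p below 0.05, against 39.8% of all tested genes, and 38 were called decreased, which also required a fold change above 2, against 6.03% of all tested genes (edgeR's quasi-likelihood test with Benjamini-Hochberg adjustment over all tested genes). None was called increased, either by edgeR or by DESeq2, against 12.7% of all tested genes, and none was higher at an unadjusted p below 0.05. In each of the 58 the 3 NoSucrose libraries lay below the 3 Sucrose libraries, as was so for 41.1% of all tested genes. The median log2 fold change of the members, NoSucrose over Sucrose, was -1.16, which leaves 44.6% of the Sucrose level, and the median of all tested genes was 0.03. The individual values ran from -1.91 for CGR1 to -0.16 for MDN1, with standard errors (SE) of 0.057 to 0.116. Of the 100 tested genes with the lowest log2 fold changes, 19 were members.

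**Figure D1:**
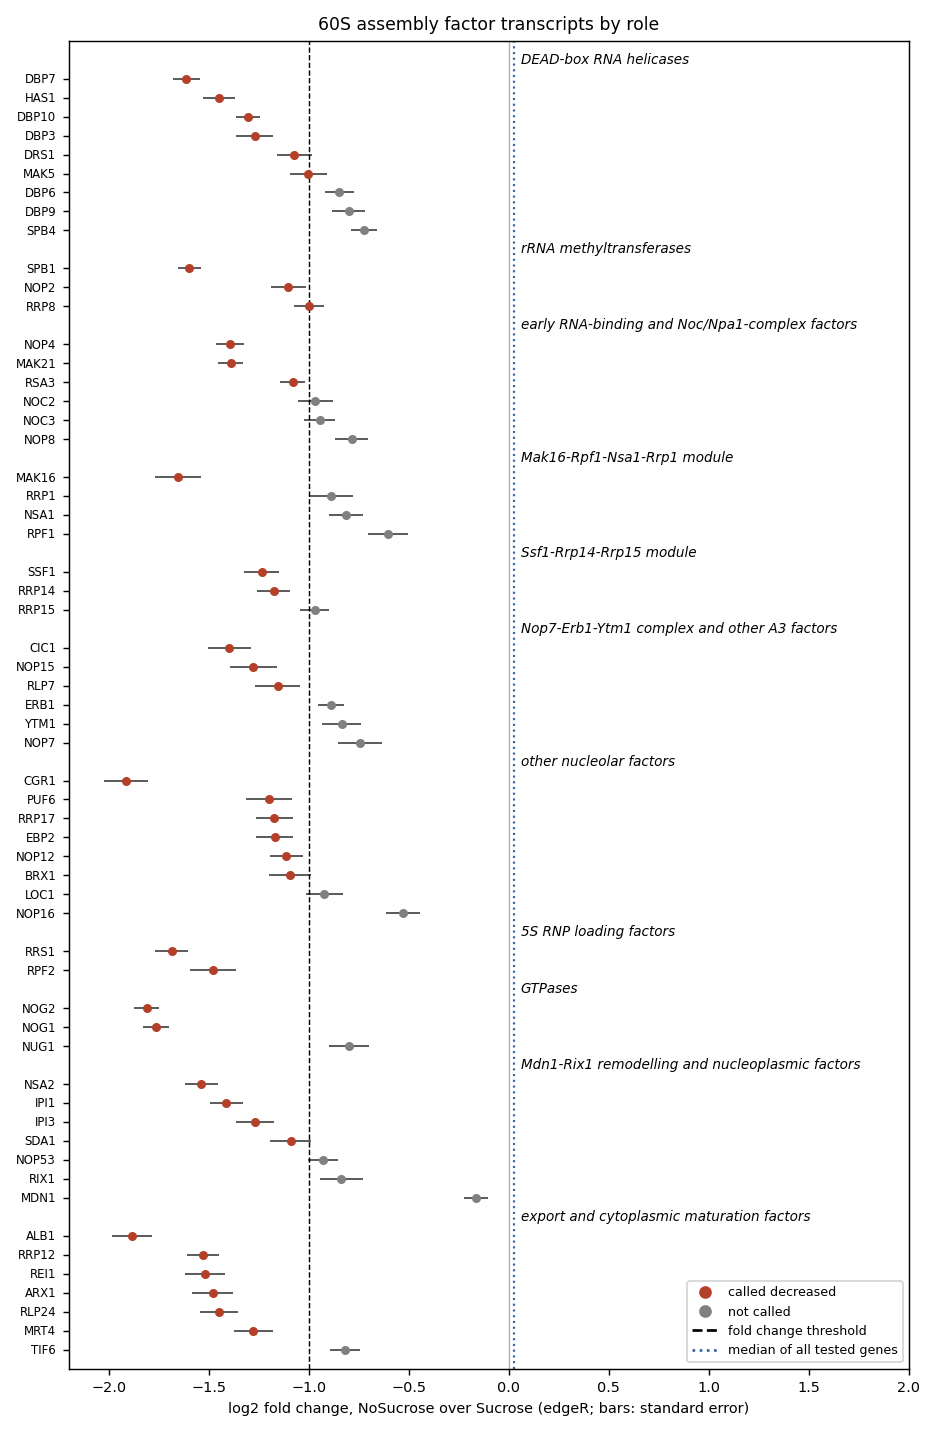
Log2 fold change (NoSucrose over Sucrose, x axis, with standard error bars) of each of the 58 members, grouped by role down the page. Red points are the 38 members called decreased, grey points the 20 not called, the dashed line the fold change threshold and the dotted line the median of all tested genes (0.03); every member lies left of 0.

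The members made up 0.508%, 0.571% and 0.661% of all counts in NoSucrose replicates 1, 2 and 3, against 1.17%, 1.14% and 1.18% in Sucrose replicates 1, 2 and 3. The mean share was 0.580% ± 0.0766 in NoSucrose and 1.16% ± 0.0226 in Sucrose (SD, n = 3 each). The conditions did not overlap, and the NoSucrose libraries were spread more widely than the Sucrose libraries.

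The sequences upstream of the coding regions are shown first for the 6 members with the lowest log2 fold changes among those that hold both elements within 300 bases of the start codon, because these elements stood upstream of a larger share of the members than of all genes. PAC was searched as GCGATGAG (CTCATCGC on the other strand) and RRPE as AAAATTTT, which reads the same on both strands, so that both strands were covered. Each stretch runs 5′ to 3′ on the strand of its gene in the RefSeq R64 assembly, from 8 bases before the first element to 8 bases after the second, with the elements in capitals. MDN1, chosen after its values were seen, is added because it carried both elements and had the log2 fold change closest to 0.
CGR1 (chrVII:439922-439955, + strand): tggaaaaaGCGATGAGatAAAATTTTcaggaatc
ALB1 (chrX:189583-189614, + strand): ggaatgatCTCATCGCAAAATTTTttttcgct
NOG2 (chrXIV:723269-723301, - strand): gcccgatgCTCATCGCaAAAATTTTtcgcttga
NOG1 (chrXVI:370827-370863, + strand): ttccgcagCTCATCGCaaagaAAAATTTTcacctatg
NSA2 (chrV:414297-414335, - strand): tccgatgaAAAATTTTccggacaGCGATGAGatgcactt
RRP12 (chrXVI:529527-529574, + strand): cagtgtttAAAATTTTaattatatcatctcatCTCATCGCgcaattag
MDN1 (chrXII:363930-363967, - strand): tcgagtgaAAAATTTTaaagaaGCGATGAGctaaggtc

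PAC was found upstream of 35 of the 58 members (60.3%), against 228 of the 4980 tested genes with an upstream window (4.58%). RRPE was found upstream of 48 members (82.8%), against 518 of the 4980 genes (10.4%). Both stood upstream of 28 members (48.3%), against 117 of the 4980 genes (2.35%), and the core of PAC, GATGAG, which every PAC match contains, upstream of 52 members (89.7%), against 19.0% of the genes. The 3 members with neither PAC nor RRPE, NOP4, RRP17 and RSA3, each had the PAC core and were each called decreased.

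The size of the change was set beside the presence of the elements, as a description without a test. The 28 members with both had a median log2 fold change of -1.21 with 20 called decreased, and the 30 others had a median of -1.14 with 18 called decreased. Split by PAC, the order was the other way, with -1.113 for the 35 members with it and -1.174 for the 23 without. Split by RRPE, the medians were -1.173 for the 48 members with it and -1.097 for the 10 without. Among the tested genes outside the list, the 89 with both elements had a median of -0.93, with 38 called decreased (42.7%). Of the 4833 others, 225 were called decreased. They were 26 of 104 with PAC only (25%), 62 of 381 with RRPE only (16.3%) and 137 of 4348 with neither (3.15%). These 89 include 26 of 62 assembly factors of the 40S subunit, with 14 called decreased. They also include 7 of 32 further 60S assembly factors, with 6 called decreased. The 26 had a median of -1.035, against -1.075 for the other 40S factors. The 7 had a median of -1.4, against -0.88 for the other 25 of the 32. Of 138 ribosomal protein genes 0 had both elements. A match is a description of the letters in the window, not a site shown to be bound.

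Most matches lay between 50 and 200 bases from the start codon. The 35 PAC matches lay 47 to 199 bases from the start codon, with a median of 115, and 34 of them lay between 50 and 200 bases. The 57 RRPE matches lay 77 to 266 bases away, with a median of 133. In the 28 members with both, the nearest PAC and RRPE were separated by a median of 7.5 bases, at most 30 bases in 26 of the 28, and RRPE was the farther from the start codon in 23.

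**Figure D2:**
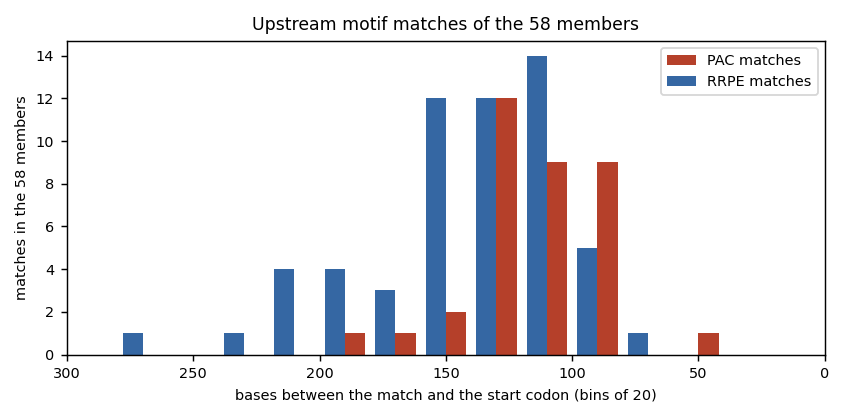
Number of PAC (red) and RRPE (blue) matches upstream of the 58 members against the number of bases between the match and the start codon (x axis, bins of 20 bases, the start codon at the right). Of the 35 PAC matches 34 lie between 50 and 200 bases from the start codon, and the median lies at 115 bases for PAC and 133 for RRPE.

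The DEAD-box RNA helicases unwind or clamp pre-rRNA helices at different steps. Of 9 measured, 6 were called decreased, with a median log2 fold change of -1.07. DBP7 had 28.9, 32.6 and 33.5 CPM in NoSucrose replicates 1, 2 and 3, against 97.0, 91.2 and 103 CPM in Sucrose replicates 1, 2 and 3. All NoSucrose libraries lay well below the lowest Sucrose library, and the log2 fold change was -1.61 (SE 0.068, adjusted p = 4.61e-07 by edgeR's quasi-likelihood test). SPB4, a helicase of late nucleolar particles, was the helicase with the smallest change. It had 56.1, 64.2 and 66.1 CPM in NoSucrose, against 106, 98.9 and 103 CPM in Sucrose (log2 fold change -0.72, adjusted p = 1.83e-05 by edgeR), which is below the fold change threshold although the conditions did not overlap. HAS1, which works on both subunits, DBP10, DBP3 and DRS1 were called with log2 fold changes of -1.45, -1.30, -1.27 and -1.07. MAK5 was called at -1.003, and DBP6 (a partner of the Npa1 complex) and DBP9 had -0.85 and -0.80 and were not called.

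All 3 rRNA methyltransferases, which modify bases or riboses of the 25S rRNA, were called decreased. SPB1, the ribose methyltransferase of the peptidyl transferase centre, had 79.0, 82.0 and 89.7 CPM in NoSucrose, against 254.9, 248 and 257 CPM in Sucrose. Its libraries were among the most alike within each condition, and the log2 fold change was -1.60 (SE 0.057, adjusted p = 2.43e-07 by edgeR's quasi-likelihood test). RRP8, an adenine methyltransferase, had 63.4, 74.2 and 79.1 CPM in NoSucrose, against 144, 143 and 147 CPM in Sucrose (log2 fold change -1.00002, adjusted p = 7.81e-06 by edgeR). RRP8 thus stood at the fold change threshold itself, although its conditions were apart. The cytosine methyltransferase NOP2 had a log2 fold change of -1.102.

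Of 6 early RNA-binding factors and components of the Noc and Npa1 complexes, which bind the first pre-60S particles, 3 were called decreased. NOP4, an RNA-binding protein with several RRM domains, had 93.8, 101 and 112 CPM in NoSucrose, against 265, 268 and 273 CPM in Sucrose (log2 fold change -1.39, adjusted p = 9.97e-07 by edgeR's quasi-likelihood test). NOP8 of the Npa1 complex had 38.9, 46.3 and 49.99 CPM in NoSucrose, against 77.4, 77.3 and 78.6 CPM in Sucrose (log2 fold change -0.79, adjusted p = 4.71e-05 by edgeR). The conditions were apart for both, and NOP8 did not pass the fold change threshold. MAK21 (Noc1) and RSA3 (Npa1 complex) were called at -1.39 and -1.08, and NOC2 and NOC3 had -0.97 and -0.95.

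The members of a complex did not change by the same amount. In the module of Mak16, Rpf1, Nsa1 and Rrp1, which joins early particles together, MAK16 alone was called. MAK16 had 51.7, 64.3 and 71.4 CPM in NoSucrose, against 210.6, 183 and 197 CPM in Sucrose (log2 fold change -1.65, SE 0.114, adjusted p = 4.76e-06 by edgeR's quasi-likelihood test). RPF1, a Brix domain protein, had 50.5, 63.1 and 67.9 CPM in NoSucrose, against 92.4, 88.5 and 95.3 CPM in Sucrose (log2 fold change -0.60, SE 0.099, adjusted p = 0.000638 by edgeR). Both were lower in every NoSucrose library, and NSA1 and RRP1 had log2 fold changes of -0.82 and -0.89. The differences between members of the module were not tested.

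In the module of Ssf1, Rrp14 and Rrp15, which binds pre-60S particles in the nucleolus, 2 of 3 transcripts were called. SSF1 had 56.3, 68.7 and 72.8 CPM in NoSucrose, against 157, 149 and 161 CPM in Sucrose (log2 fold change -1.24, adjusted p = 6.19e-06 by edgeR's quasi-likelihood test). Its paralog SSF2 is identical at 92.1% of the 1362 bases of the SSF1 coding sequence, so reads may be divided between them, and SSF2 was also called (log2 fold change -1.01). RRP15 had 55.2, 57.0 and 67.1 CPM in NoSucrose, against 117, 114 and 121 CPM in Sucrose (log2 fold change -0.97, adjusted p = 7.56e-06 by edgeR), which with that of NOC2 was the value nearest to the threshold among the members not called. RRP14 had -1.18.

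The Nop7-Erb1-Ytm1 complex and the A3 factors Cic1, Nop15 and Rlp7 are needed for processing of the internal transcribed spacer between the 5.8S and 25S rRNAs. The 3 A3 factors outside the complex were called, and the 3 subunits of the complex were not. CIC1 had 63.7, 76.5 and 88.0 CPM in NoSucrose, against 202, 192 and 208 CPM in Sucrose (log2 fold change -1.40, adjusted p = 8.61e-06 by edgeR's quasi-likelihood test). NOP15, an RNA-binding protein, and RLP7, which resembles a ribosomal protein, had log2 fold changes of -1.28 and -1.16. NOP7, the member with the highest CPM in each Sucrose library, had 243, 288 and 339.5 CPM in NoSucrose, against 488, 481 and 492 CPM in Sucrose (log2 fold change -0.75, adjusted p = 0.000332 by edgeR). ERB1 and YTM1, its partners, had -0.89 and -0.84. The difference between the A3 factors and the complex was not tested.

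Of 8 other nucleolar factors, 6 were called decreased. CGR1, a small basic protein, had the lowest log2 fold change of all members. It had 13.6, 16.2 and 18.7 CPM in NoSucrose, against 57.0, 60.6 and 65.8 CPM in Sucrose (log2 fold change -1.91, SE 0.111, adjusted p = 1.98e-06 by edgeR's quasi-likelihood test), so that 26.6% of the Sucrose level remained. The libraries of the 2 conditions were far apart. NOP16 had 87.0, 101 and 111 CPM in NoSucrose, against 139, 142 and 151 CPM in Sucrose (log2 fold change -0.53, adjusted p = 0.00057 by edgeR). PUF6, an RNA-binding protein, RRP17, an exonuclease, EBP2, NOP12 and BRX1 were called with values between -1.20 and -1.09, and LOC1, an RNA-binding protein that also takes part in ASH1 mRNA localisation, had -0.92.

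RRS1 and RPF2 bring the 5S ribonucleoprotein into the particle, and both were called decreased. RRS1 had 38.7, 44.4 and 48.8 CPM in NoSucrose, against 138, 137 and 149.6 CPM in Sucrose (log2 fold change -1.69, adjusted p = 9.47e-07 by edgeR's quasi-likelihood test). RPF2 had 56.2, 66.5 and 80.5 CPM in NoSucrose, against 188, 186 and 193 CPM in Sucrose (log2 fold change -1.48, SE 0.116, adjusted p = 9.28e-06 by edgeR). RPF2 had the largest standard error of all members, yet its highest NoSucrose library was below its lowest Sucrose library.

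Of the 3 GTPases, NOG2 and NOG1 were among the 4 lowest members and NUG1 was not called. NOG2, a GTPase of late nuclear particles, had 74.3, 79.6 and 80.4 CPM in NoSucrose, against 281, 253 and 288 CPM in Sucrose (log2 fold change -1.81, SE 0.064, adjusted p = 2.33e-07 by edgeR's quasi-likelihood test), the lowest adjusted p of all members. It is the only member with more than 1 coding exon. NOG1, which joins in the nucleolus and leaves in the cytoplasm, had 123, 139.5 and 138 CPM in NoSucrose, against 439.8, 446 and 471 CPM in Sucrose (log2 fold change -1.76, adjusted p = 2.67e-07 by edgeR). NUG1 had 147, 174 and 196 CPM in NoSucrose, against 295, 297 and 308.5 CPM in Sucrose (log2 fold change -0.80, adjusted p = 0.000123 by edgeR).

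Of the 7 factors of the Mdn1-Rix1 remodelling step and the nucleoplasm, 4 were called decreased. NSA2, which binds the nuclear particle, had 49.1, 58.1 and 61.2 CPM in NoSucrose, against 164, 155 and 169.5 CPM in Sucrose (log2 fold change -1.54, adjusted p = 1.3e-06 by edgeR's quasi-likelihood test). IPI1 and IPI3, partners of Rix1, had -1.41 and -1.27, SDA1 had -1.09, and NOP53, which recruits the exosome, and RIX1 had -0.93 and -0.84 and were not called.

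MDN1 stood apart from the other members. It encodes a very large AAA ATPase that pulls assembly factors off the particle, and its coding length of 14733 bases is the longest of the members. It had 370.1, 370.8 and 407 CPM in NoSucrose, against 450.2, 427 and 409 CPM in Sucrose. The lowest Sucrose library was barely above the highest NoSucrose library, the log2 fold change was -0.16 (SE 0.060, adjusted p = 0.0352 by edgeR's quasi-likelihood test), and 89.3% of the Sucrose level remained. With library size alone as the scaling, the log2 fold change was -0.05 (adjusted p = 0.548 by edgeR). Its adjusted p by edgeR was also above 0.05 without NoSucrose replicate 1 (0.0876), NoSucrose replicate 2 (0.143), Sucrose replicate 1 (0.0847) or Sucrose replicate 2 (0.0817). The next highest member, NOP16, was at -0.53, and the next highest adjusted p was 0.000638.

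Of the 7 export and cytoplasmic maturation factors, 6 were called decreased, and their median of -1.48 was below that of the members as a whole. So were the medians of the GTPases (-1.76), of RRS1 and RPF2 (-1.58), and of the Ssf1, Rrp14 and Rrp15 module (-1.18). ALB1, a partner of Arx1, had 28.3, 35.2 and 38.1 CPM in NoSucrose, against 119, 123 and 133 CPM in Sucrose (log2 fold change -1.88, adjusted p = 1.4e-06 by edgeR's quasi-likelihood test). RRP12, an export factor of both subunits, had 88.7, 97.8 and 109.9 CPM in NoSucrose, against 296, 281 and 280.3 CPM in Sucrose (log2 fold change -1.53, adjusted p = 1.2e-06 by edgeR). For both, the conditions were far apart. TIF6, a factor that keeps the subunits from joining, had 143, 158 and 174 CPM in NoSucrose, against 287, 268 and 284 CPM in Sucrose (log2 fold change -0.82, adjusted p = 2.16e-05 by edgeR), and it was not called. REI1, which helps to release Arx1 in the cytoplasm, had a log2 fold change of -1.52, and ARX1, an export factor, one of -1.48. RLP24 and MRT4, whose places on the particle are later taken by the ribosomal proteins Rpl24 and P0, had -1.45 and -1.28. The antisense reading frame YBR266C overlaps REI1, and it was not a row of the filtered table.

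**Figure D3:**
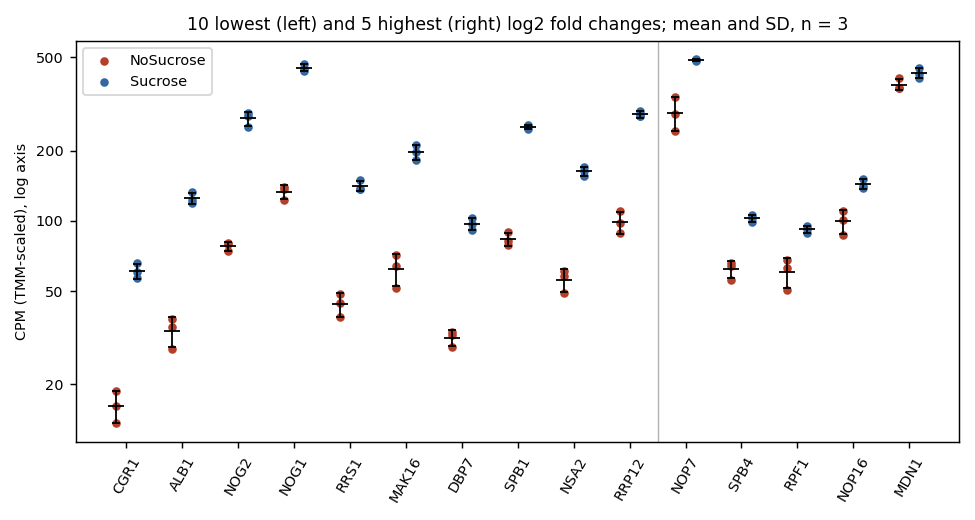
CPM (TMM-scaled, log axis) in each NoSucrose (red) and Sucrose (blue) library for the 10 members with the lowest log2 fold changes, left of the grey line, and the 5 with the highest, right of it; black marks are the mean and SD (n = 3). From CGR1 (-1.91) to RRP12 (-1.53) the conditions are far apart, and for MDN1 (-0.16) they almost touch.

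Many members lay near the fold change threshold. The log2 fold changes of 11 members were between -1.1 and -0.9, with MAK5 and RRP8 just inside it and RRP15 and NOC2 just outside (both -0.97). Of the 38 members called, 30 were called under each of 12 alternatives in scaling, filter, tool, replicate block or libraries, and 8 were not, namely NOP12, NOP2, BRX1, SDA1, RSA3, DRS1, MAK5 and RRP8. With scaling by library size alone the median over all tested genes moved to 0.14 on the log2 scale, and each of these 8 fell short of the threshold under it. With upper-quartile factors MAK5 and RRP8 fell short too (-0.99 and -0.98). Without NoSucrose replicate 1, BRX1, SDA1, DRS1, MAK5 and RRP8 also fell short, at -0.99, -0.99, -0.98, -0.91 and -0.92, as did MAK5 without Sucrose replicate 1 (-0.96) and RRP8 without Sucrose replicate 3 (-0.99). Without NoSucrose replicate 3, RRP15, NOC2, NOC3, NOP53, LOC1 and RRP1 passed it, at -1.06, -1.07, -1.04, -1.005, -1.01 and -1.03. A fold change threshold of 1.5 gave 56 members.

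Expressed per length of coding sequence, the members covered a wide range of levels. Mean RPKM in NoSucrose ran from 14.2 for DBP7 to 214 for TIF6, with a median of 66.3. Mean RPKM in Sucrose ran from 29.1 for MDN1 to 379 for TIF6, with a median of 141. Coding length ran from 363 bases for CGR1 to 14733 bases for MDN1, and Spearman's rho between coding length and log2 fold change was 0.14 across the 58 members and 0.09 without MDN1. This is a correlation across genes of the same libraries, which are not independent.

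The NoSucrose libraries differed from each other in the size of the decrease. The median log2 ratio of the members to their mean Sucrose level was -1.35 in NoSucrose replicate 1, -1.16 in replicate 2 and -0.97 in replicate 3. All 58 members had their lowest value in the library of replicate 1, and 57 had their highest NoSucrose value in that of replicate 3, the exception being NOG1, with its highest NoSucrose value in replicate 2. Both of these held for 57 members (98.3%), against 27.4% of all tested genes and 60 of 62 assembly factors of the 40S subunit. Genes called increased showed the opposite, with a median log2 ratio of replicate 3 to replicate 1 of -0.20, against 0.36 for the members. The median coefficient of variation of the members was 12.5% in NoSucrose and 3.66% in Sucrose. What sets the NoSucrose libraries apart was not tested. Without NoSucrose replicate 1, 33 members were called and the median log2 fold change was -1.06, and without NoSucrose replicate 3, 44 were called and it was -1.26.

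**Figure D4:**
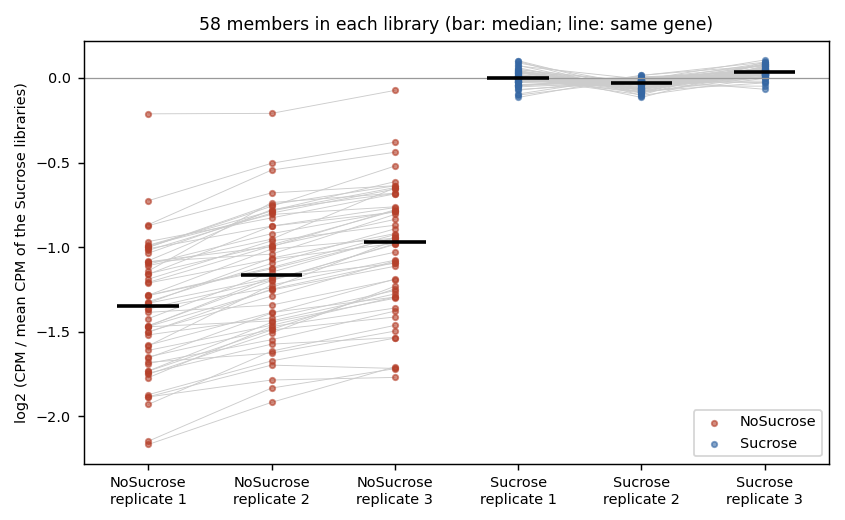
Log2 ratio of each member's CPM to its mean CPM in the Sucrose libraries (y axis), in the 3 NoSucrose libraries (red, left) and the 3 Sucrose libraries (blue, right), with a black bar at the median and grey lines joining values of the same gene. The medians are -1.35, -1.16 and -0.97 in NoSucrose replicates 1, 2 and 3, and the NoSucrose points lie lower than the Sucrose points of the same gene in every case.

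Most other genes of the pathway were also lower in NoSucrose, with exceptions in most lists. Of 32 further 60S assembly factors, 31 were lower and 1, RSA1, was higher at an adjusted p below 0.05 (log2 fold change 0.21), and 15 were called decreased, with a median of -0.95. They included RSA4, the Mdn1 substrate (-1.63), the helicase DBP2 (-1.53), NIP7 (-1.47) and the AAA ATPase RIX7 (-1.40). Of 62 assembly factors of the 40S subunit 35 were called, with a median of -1.06, from UTP18 at -1.62 to ESF1 at 0.13. Of 82 ribosomal protein genes of the large subunit 12 were called, with a median of -0.83, and RPL15B was higher at an adjusted p below 0.05 (0.21). Of 57 ribosomal protein genes of the small subunit 15 were called, with a median of -0.89, and all 57 were lower at an adjusted p below 0.05. Of 15 RNA polymerase I subunits and factors 7 were called decreased and 12 were lower at an adjusted p below 0.05, with RRN11, an initiation factor, the lowest (-2.14). The initiation factors RRN5 (0.47) and RRN10 (0.37) were higher at an adjusted p below 0.05, and RRN9 (-0.05) did not pass it. No 2 members were neighbours in the genome. NSA2 shares a divergent intergenic region of 301 bases with the 40S factor gene LCP5 (log2 fold change -1.30), and SSF1 a region of 297 bases with RRP3 (-0.57).

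**Figure D5:**
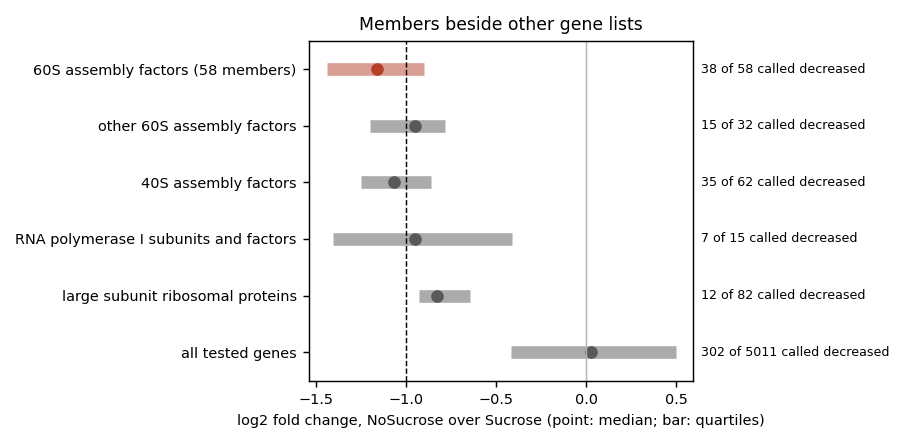
Median (point) and quartiles (bar) of the log2 fold change, NoSucrose over Sucrose, for the 58 members (red, top), 4 other gene lists and all tested genes (grey). The dashed line is the fold change threshold; of the lists shown the members have the lowest median (-1.16) and all tested genes have a median of 0.03.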

How the data were processed

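The authors trimmed the reads, quantified them with Salmon against an R64 transcriptome, and deposited estimated counts per gene before and after a filter on low counts. Neither deposited table holds normalised values. The filtered file lists 5113 names beside 5028 rows of values, so names were reassigned by looking up the 6 values of every row among the unfiltered genes, and each row had 1 match. Headers of the filtered table assigned the libraries; 4 of the 6 headers of the unfiltered table differed from them and were not used. The filtered headers gave the same values, within a small tolerance, for 1999 of 1999 genes in a shortened supplementary copy.

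The rounded estimated counts of 5011 genes passed filterByExpr at a minimum count of 15 and a minimum total of 20. Condition was the only term of the quasi-likelihood test (edgeR 4.0.16, R 4.3.3, TMM factors), and transcripts were called at an adjusted p below 0.05 and a fold change above 2. The standard error (SE) was taken as the size of the log2 fold change over the square root of F. The alternatives were DESeq2 1.42.0, RLE or upper-quartile factors, library size alone, no filter, a replicate block, a fold change of 1.5, and each library left out. Both tests were tested on simulated data. The study also fitted glucose libraries, which were not analysed here.

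The members and lists were chosen with earlier results of these data known. All members are named, with values per library for the 10 lowest and 5 highest log2 fold changes and the extremes of each role; of the other lists, called genes and extremes are named, in part. Upstream sequences were read from the RefSeq R64 genome.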

Additional observations from a re-analysis of the deposited data

How the results depend on the processing

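All 58 members kept a negative log2 fold change under the 12 alternatives. The count called decreased was 38 with DESeq2, with RLE factors, with no filter and with the replicate block, 36 with upper-quartile factors, 30 with library size alone, and 33 to 44 with 1 library left out. The median ran from -1.19 with DESeq2 to -1.05 with library size alone, and from -1.26 to -1.06 with 1 library left out. The count at an adjusted p below 0.05 was 57 or 58, and the member that failed was MDN1, in 7 of the 12 (adjusted p 0.00785 to 0.548 over the alternatives, edgeR's quasi-likelihood test or DESeq2). Further 60S factors called numbered 11 to 15, and 12 to 18 with 1 library left out. The difference in share, NoSucrose minus Sucrose, was -0.580 percentage points, -0.650 with effective library sizes, and -0.620 to -0.544 with 1 library left out. With the replicate block the median was -1.17 and no call of a member changed, though MDN1 had an adjusted p of 0.0747 (edgeR's quasi-likelihood test). Same-numbered libraries deviated from their group means with correlations across genes of -0.137, -0.00221 and 0.0407. Differently numbered libraries had correlations from -0.327 to 0.270. These correlations cannot show whether the cultures were paired by design. With 3 libraries per condition, an exact permutation test of a single value cannot go below 0.1.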

Other observations

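Among 14 regulators of ribosome biogenesis genes, 2 were called decreased, 1 was called increased and the median log2 fold change was 0.07. TOD6 and DOT6 encode related Myb-type proteins that bind PAC and repress such genes. TOD6 had 33.4, 48.9 and 49.1 CPM in NoSucrose, against 115, 103 and 118 CPM in Sucrose, and was called decreased (log2 fold change -1.36, adjusted p = 3.96e-05, edgeR's quasi-likelihood test). DOT6 had 585, 568 and 532 CPM in NoSucrose, against 285, 305 and 304 CPM in Sucrose, with a log2 fold change of 0.92 (adjusted p = 2.54e-06, the same edgeR test), short of the fold change threshold. STB3, which binds RRPE, had 126, 125 and 112 CPM in NoSucrose, against 66.0, 69.5 and 66.4 CPM in Sucrose (log2 fold change 0.84, adjusted p = 3.65e-06, the same edgeR test). The paralogs TOD6 and DOT6 thus had log2 fold changes of opposite sign, with the conditions apart for both.

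IFH1, a coactivator of ribosomal protein genes, was called decreased, with 70.3, 70.7 and 68.4 CPM in NoSucrose, against 195, 194 and 193 CPM in Sucrose (log2 fold change -1.48, adjusted p = 8.37e-08, edgeR's quasi-likelihood test). Its 3 NoSucrose libraries were close to each other. LST8, a subunit of both TOR complexes, was called increased, with 209.9, 207 and 122 CPM in NoSucrose, against 45.6, 47.5 and 47.1 CPM in Sucrose (log2 fold change 1.94, adjusted p = 3.88e-05, the same edgeR test). SFP1, an activator of ribosome biogenesis genes, had a log2 fold change of 0.18 and the kinase SCH9 one of -0.78.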
